A study of Penicillium oxalicum with 9 samples.

Results

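Of the 9834 gene IDs measured in mycelium of the filamentous fungus Penicillium oxalicum, 85 (0.864%) were raised in the mutant of the gene POX01907 over both other strains. They were chosen on measured values. The lowest FPKM of an ID in the 3 MuPOX01907 libraries had to be at least 10, and at least 3 times its highest FPKM in the 6 MuPOX08340 and Ku70 libraries. An ID so chosen need not be low elsewhere, and 11 of the 85 reached 100 FPKM or more in these 6 libraries. FPKM is a read level scaled to gene length and to library size, and the deposited values were used. Another 3 IDs, POX01356, POX09352 and POX06783, were left out by name, although none of them met the thresholds (0 of 3).

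The study examined regulators of amylase genes, the genes for starch-degrading enzymes. MuPOX01907 and MuPOX08340 are mutants of the genes in their names. Ku70, the strain they are set against, lacks ku70, which serves non-homologous end joining, a loss that makes fungal gene deletion by homologous recombination efficient, and the growth protocol names MuKu70 as the strain whose spores were used. Each strain gave 3 RNA sequencing libraries, lettered F, S and T, from mycelium grown for 24 h, and whether these came from separate cultures is not stated. P-values therefore measure the spread between libraries alone, and that spread may be technical. By the sample titles both mutants grew in 1% starch and Ku70 in 1% Avicel, but the shared growth protocol names Avicel, a purified cellulose, for every sample. Strain and medium thus cannot be told apart where a mutant is set against Ku70, whereas both mutants share the stated medium. No label says whether each mutant is 1 clone.

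A filamentous fungus turns sets of genes on and off with its carbon source and its developmental state through transcription factors, which can act as activators or repressors. In such fungi, genes of 1 pathway, those for secondary metabolites above all, often lie side by side on a chromosome and change together. Transcripts that are high when a regulator is missing can lie directly under its repression or follow indirectly from a change in growth or development. The files give no names or products for the IDs, and none of the 9834 IDs matched the reference gene table (0 matches), so no function is given to any ID here.

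Total expected counts lay between 14412296 and 14802260 per library, so depth was nearly even. The POX01907 transcript was at 0.01, 0.01 and 0.04 FPKM in MuPOX01907 libraries F, S and T, at 24.23, 20.41 and 19.88 in MuPOX08340 and at 22.87, 17.08 and 16.52 in Ku70. It was thus near 0 only in the strain labelled as its mutant. POX08340 was at 8.26, 8.01 and 7.28 FPKM in MuPOX01907, listed at 0 in all 3 MuPOX08340 libraries, and at 30.62, 35.67 and 30.61 in Ku70. Ku70 F stood apart from its own group: its counts differed from those of Ku70 S and T with a chi-square per degree of freedom of 463 and 486, against 17.5 to 88.8 for all other pairs of libraries of 1 strain.

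The 85 IDs had a median level of 123.43, 118.42 and 126.17 FPKM in MuPOX01907 libraries F, S and T. Their median was 9.03, 9.41 and 9.82 FPKM in MuPOX08340 and 5.76, 10.24 and 12.79 FPKM in Ku70. Over all IDs the median was 16.04, 16.72 and 16.605 FPKM in MuPOX01907, 21.34, 21.67 and 21.76 in MuPOX08340, and 21.315, 20.885 and 22.135 in Ku70. In both other strains these IDs were therefore low at the median, and none was at 0 in any library. Between 39 and 42 of the 85 reached 10 FPKM in each MuPOX08340 library and between 32 and 51 in each Ku70 library. Between 8 and 11 stayed under 1 FPKM in MuPOX08340, against 17 in Ku70 F and 6 and 7 in Ku70 S and T. In bulk RNA, more cells that use a gene and more RNA per cell cannot be told apart.

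**Figure D1:**
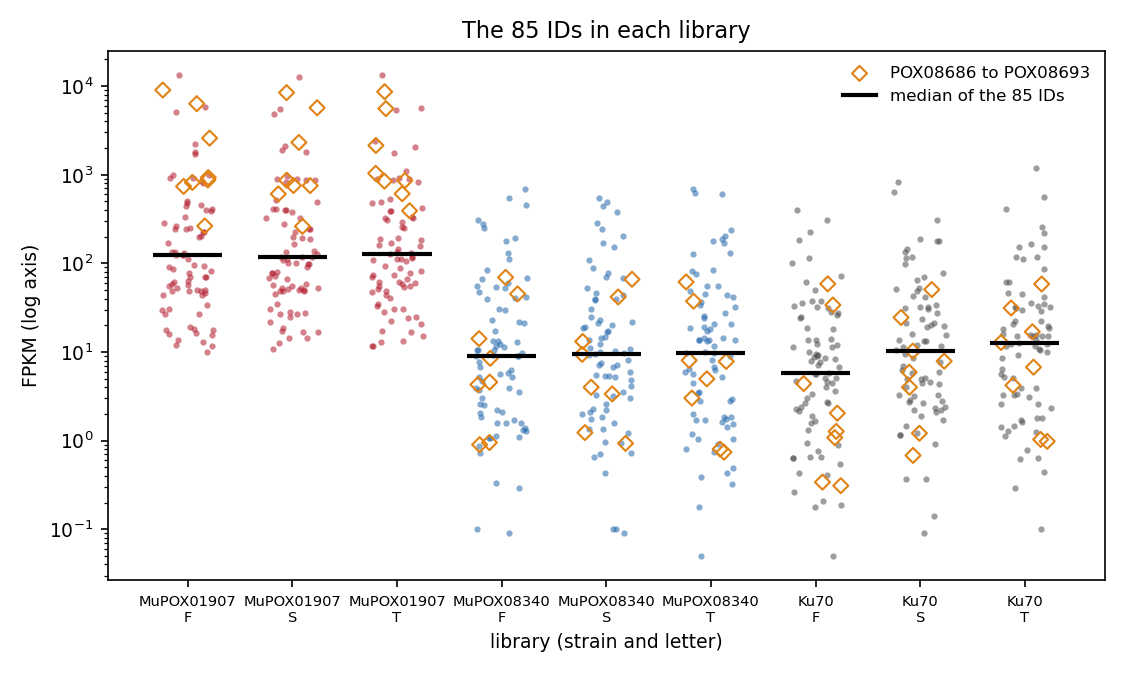
FPKM of the 85 IDs (log axis) in each of the 9 libraries, by strain and letter; each point is 1 ID, black bars are medians, and diamonds mark POX08686 to POX08693. The medians sit between 118.42 and 126.17 FPKM in MuPOX01907 and between 5.76 and 12.79 FPKM in the other 6 libraries, a gap that the choice of the IDs sets.

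The IDs spanned a wide range of levels. Mean FPKM in MuPOX01907 ran from 10.87 to 13182, with 36 IDs between 10 and 100, 39 between 100 and 1000, and 10 at 1000 or more. In MuPOX01907, 5 of the 85 were among the 50 highest IDs by mean FPKM and 26 among the highest 500, whereas over the other 6 libraries the numbers were 0 and 3. The ratio of the lowest MuPOX01907 value to the highest other value had a median of 5.89 and reached 660. It lay between 3 and 5 for 34 IDs, between 5 and 10 for 24, between 10 and 20 for 8, between 20 and 50 for 12 and at 50 or more for 7. Ratios of mean FPKM ran from 3.68 to 1931 for MuPOX01907 over MuPOX08340 and from 3.52 to 1375 for MuPOX01907 over Ku70. These contrasts chose the IDs, so no test is given for them. All 85 were among the 549 IDs (6.37% of 8623 tested) called higher in MuPOX01907 than in MuPOX08340 and than in Ku70 by edgeR, which repeats the choice.

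**Figure D2:**
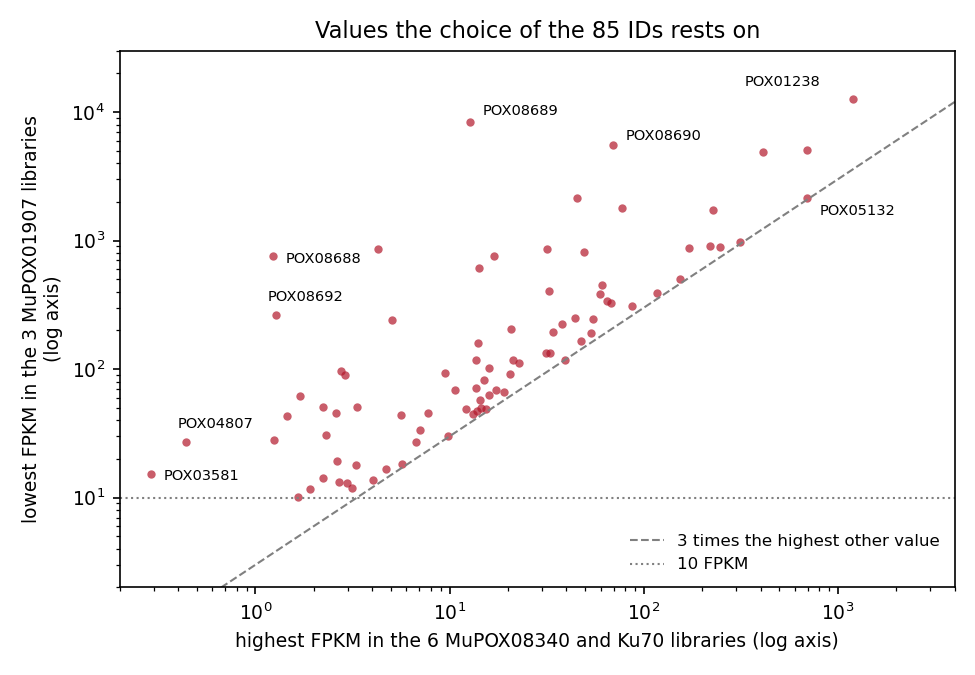
The values that chose the 85 IDs: lowest FPKM in the 3 MuPOX01907 libraries against highest FPKM in the 6 MuPOX08340 and Ku70 libraries, both on log axes, 1 point per ID. The dashed line is the 3-fold limit and the dotted line the 10 FPKM limit; most points lie near the dashed line, and POX08689 and POX08688 lie far above it at ratios of 660 and 613.

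The largest ratios were held by IDs that follow one another in number. POX08686 to POX08693, a run of 8 consecutive IDs, were all among the 85, with ratios from 43.0 to 660, and held 5 of the 7 ratios of 50 or more. POX08689, the highest of the run, had 9049.57, 8441.07 and 8654.14 FPKM in MuPOX01907, 4.57, 4.0 and 4.97 in MuPOX08340, and 0.31, 5.91 and 12.79 in Ku70. It ranked 7 by mean level in MuPOX01907 and 7482 over the other 6 libraries. POX08690 had 6339.2, 5695.22 and 5576.27 FPKM in MuPOX01907, 69.46, 66.14 and 61.69 in MuPOX08340, and 58.74, 50.66 and 58.48 in Ku70. Its level in both other strains was steady and well above 0, unlike that of POX08689, whose Ku70 libraries were widely spread. POX08688 had 818.96, 754.37 and 846.43 FPKM in MuPOX01907, 0.9, 1.23 and 0.8 in MuPOX08340, and 0.34, 0.68 and 0.98 in Ku70.

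POX08691 had 2590.39, 2316.3 and 2141.18 FPKM in MuPOX01907, 45.24, 41.75 and 37.4 in MuPOX08340, and 33.89, 24.52 and 31.36 in Ku70. POX08692 was lower, with 264.35, 261.82 and 392.34 FPKM in MuPOX01907, 0.95, 0.93 and 0.74 in MuPOX08340, and 1.27, 1.21 and 1.03 in Ku70. In MuPOX01907 its T library was the high one and F and S were close together, while neither other strain had such a step. The remaining 3 of the run, POX08686, POX08687 and POX08693, averaged 945 ± 86.4, 652 ± 74.8 and 829 ± 64.1 FPKM in MuPOX01907 (SD, n = 3). Their MuPOX08340 means were 3.56 ± 0.657, 10.5 ± 3.28 and 9.89 ± 2.83 FPKM, and their Ku70 means 3.10 ± 1.75, 5.55 ± 3.10 and 10.5 ± 6.26 FPKM.

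The run ended sharply on both sides. POX08685, just before it, had 0.16, 0.08 and 0.08 FPKM in MuPOX01907, 1.16, 1.64 and 0.23 in MuPOX08340, and 0.31, 0 and 0.08 in Ku70. POX08694, just after it, had 2.71, 1.95 and 1.81 FPKM in MuPOX01907, 50.76, 52.67 and 29.77 in MuPOX08340, and 2.29, 0.37 and 0.33 in Ku70. The ID that follows the run was thus high in the other mutant and low in MuPOX01907 and Ku70. POX08696 was likewise highest in MuPOX08340, at 1.06, 0.75 and 1.04 FPKM in MuPOX01907, 48.14, 58.27 and 32.55 in MuPOX08340, and 1.33, 3.13 and 0.3 in Ku70, and was picked out after its values were seen. Whether IDs with consecutive numbers lie side by side in the genome was not tested, since no annotation of these IDs was used here.

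**Figure D3:**
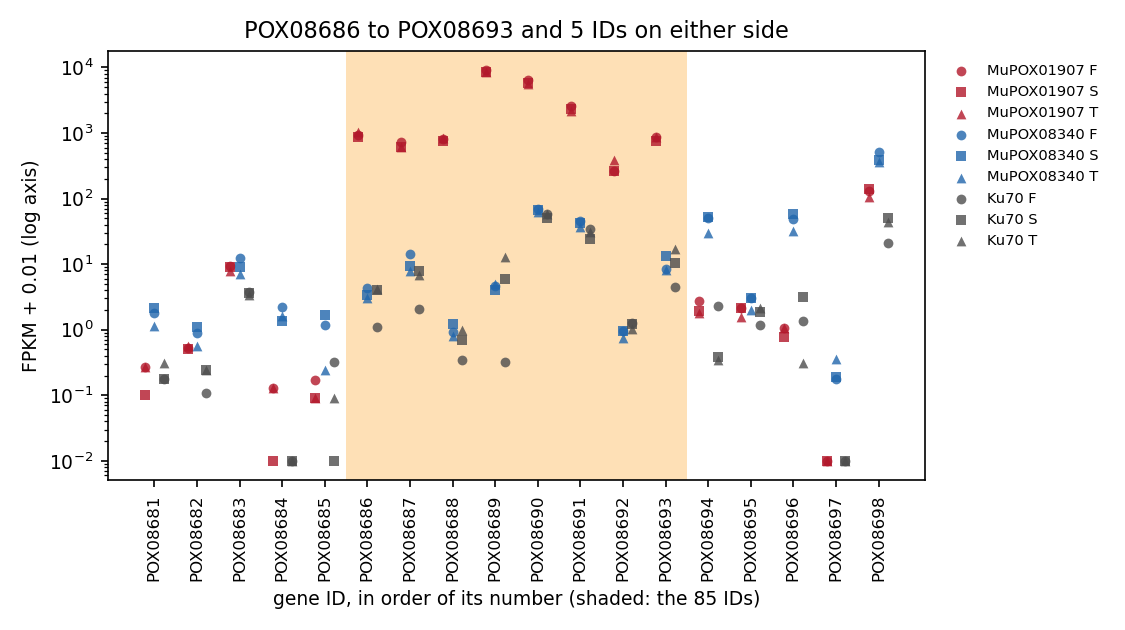
FPKM + 0.01 (log axis) of POX08686 to POX08693 (shaded) and of 5 IDs on either side, 1 point per library, coloured by strain and shaped by library letter. All 8 shaded IDs lie at 261.82 FPKM or more in MuPOX01907 and at 69.46 or less in the other 6 libraries; all 10 unshaded IDs have their highest mean in MuPOX08340, most of them at low levels.

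Counts and FPKM together imply the length that the authors' counting used for each ID. The 8 IDs of the run came out at 6064, 1032, 4944, 1110, 979, 1044, 24474 and 4036 nt, from POX08686 to POX08693. POX08692, at 24474 nt, was the longest of the 8057 IDs with enough counts for this estimate. The 85 IDs had a median implied length of 1044 nt, or 985 nt without the run, against 1310 nt over the 8057 IDs. The run thus held both long and short IDs, while the median of the 85 lay below that of all IDs with an estimate.

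The 85 IDs took 8.12% ± 0.389 of all counts in MuPOX01907, against 0.445% ± 0.00912 in MuPOX08340 and 0.397% ± 0.119 in Ku70 (SD, n = 3 each). The run alone took 3.91% ± 0.250 in MuPOX01907, against 0.0211% ± 0.00218 in MuPOX08340 and 0.0192% ± 0.00417 in Ku70. The other 77 IDs took 4.21% ± 0.140 in MuPOX01907, against 0.424% ± 0.00712 in MuPOX08340 and 0.378% ± 0.115 in Ku70. Nearly as many counts thus went to the 8 IDs of the run as to all the others. Counts grow with gene length, and of summed FPKM in MuPOX01907 the run took 1.98% ± 0.0832 and the other 77 IDs 4.25% ± 0.229. FPKM sets a library's values against its own total, and the TMM scaling factors were 0.864 to 0.881 in MuPOX01907, 1.08 to 1.10 in MuPOX08340 and 1.03 to 1.10 in Ku70. Log2 ratios of strain mean FPKM + 1 were taken over the 8589 IDs with a mean of at least 1 FPKM. Their median was -0.35 for MuPOX01907 over MuPOX08340 in FPKM as deposited and -0.05 after TMM scaling. For MuPOX01907 over Ku70 it was -0.32 and -0.06. With TMM-scaled FPKM, 119 IDs met the same thresholds, all 85 among them.

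Beside the run, 7 IDs reached 1000 FPKM in MuPOX01907. POX01238 was the second highest of all IDs there, with 13425.5, 12709.2 and 13411.3 FPKM, against 456.69, 490.8 and 614.77 in MuPOX08340 and 397.34, 830.83 and 1194.03 in Ku70. It alone took 1.40% ± 0.0431 of the counts in MuPOX01907. It was abundant in every strain, and its Ku70 libraries differed among themselves by more than its MuPOX08340 libraries did. The ID before it, POX01237, was also among the 85, at 69.28, 77.59 and 73.89 FPKM in MuPOX01907, 6.73, 8.19 and 9.01 in MuPOX08340, and 8.26, 5.86 and 10.68 in Ku70.

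POX07896 had 5849.58, 4852.85 and 5671.7 FPKM in MuPOX01907, 312.26, 377.02 and 179.7 in MuPOX08340, and 27.2, 134.16 and 409.18 in Ku70. POX03389 had 5100.52, 5476.71 and 5407.44 FPKM in MuPOX01907, 542.82, 445.78 and 696.51 in MuPOX08340, and 71.26, 635.37 and 564.98 in Ku70. Both were high in every MuPOX01907 library and lowest in Ku70 F. POX07964 had 1804.28, 1909.77 and 2077.23 FPKM in MuPOX01907, 68.04, 77.71 and 76.22 in MuPOX08340, and 49.54, 76.94 and 61.0 in Ku70. POX07854 had 1723.88, 1787.23 and 1759.43 FPKM in MuPOX01907, 180.3, 153.63 and 128.78 in MuPOX08340, and 228.0, 177.9 and 167.55 in Ku70. POX07962, which is 2 numbers before POX07964, had 1001.94, 974.86 and 1115.32 FPKM in MuPOX01907, 277.87, 285.2 and 238.2 in MuPOX08340, and 312.58, 306.43 and 259.26 in Ku70. Its 6 other libraries were close together, and its ratio of 3.12 was near the limit of 3.

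At the other end, 2 IDs stayed under 1 FPKM in all 6 MuPOX08340 and Ku70 libraries. POX04807 had 26.98, 28.09 and 28.29 FPKM in MuPOX01907, 0.09, 0.09 and 0.18 in MuPOX08340, and 0.26, 0.09 and 0.44 in Ku70. POX03581 had 15.38, 16.94 and 17.07 FPKM in MuPOX01907, 0.1, 0.1 and 0.05 in MuPOX08340, and 0.05, 0.14 and 0.29 in Ku70. Both were near silent outside MuPOX01907, with 1 to 6 counts per library. The summed counts of POX04807 were 940 in MuPOX01907 against 13 in the other 6 libraries, and those of POX03581 were 1029 against 15. As these contrasts chose the IDs, no interval is given. POX02475 combined a higher level with a low background, at 242.14, 243.62 and 258.14 FPKM in MuPOX01907, 1.58, 1.98 and 1.64 in MuPOX08340, and 5.07, 1.72 and 2.36 in Ku70.

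Libraries of MuPOX01907 mostly gave like values for the 85 IDs. The coefficient of variation over the 3 libraries had a median of 7.73% and was under 10% for 54 IDs. Its median was 9.06% over the 5694 IDs at 10 FPKM or more in each MuPOX01907 library. The choice of the 85 reads the lowest MuPOX01907 value, which favours IDs without a low library, so nothing is read from this difference. POX09561 was the steadiest at 0.506%, with 857.08, 861.45 and 865.8 FPKM, followed by POX00204 and POX01417 at 0.538% and 0.906%. POX05742 was the most variable at 47.6%, with 49.54, 110.56 and 145.22 FPKM in MuPOX01907, 2.52, 11.12 and 14.47 in MuPOX08340, and 2.66, 4.91 and 13.68 in Ku70. POX03379 and POX07577 followed at 36.1% and 34.4%. These 3 variable IDs were lowest in library F and highest in library T of each strain.

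That order of the letters in all 3 strains was seen for 6 of the 85 IDs (7.06%), against 298 of all IDs (3.03%), the other 3 being POX00919, POX05251 and POX06529. POX00919 had 250.19, 324.24 and 422.09 FPKM in MuPOX01907, 10.58, 24.67 and 44.35 in MuPOX08340, and 7.88, 19.43 and 29.09 in Ku70. Its libraries of 1 letter were thus high or low together across strains, a pattern picked out after the values were seen. Library T was the highest MuPOX01907 library for 41 of the 85, F for 29 and S for 15. Among the 5694 IDs, F was most often the highest, for 47.6% of them, against 34.1% of the 85. The labels do not say what the letters stand for.

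Ku70 F, the library that stood apart, was also low for many of the 85. It lay at least 2-fold below both Ku70 S and Ku70 T for 28 of them (32.9%), 5 of these in the run, against 752 (8.76%) of the 8589 IDs with a mean of at least 1 FPKM. The largest gap was that of POX08689, 30.2-fold below the mean of S and T. POX06151 had 450.78, 496.39 and 497.93 FPKM in MuPOX01907, 29.9, 20.28 and 55.45 in MuPOX08340, and 2.37, 52.34 and 61.23 in Ku70. POX04214 had 987.53, 890.1 and 896.54 FPKM in MuPOX01907, 247.65, 242.61 and 186.11 in MuPOX08340, and 7.61, 115.46 and 151.89 in Ku70. In both, Ku70 S and T were of the order of magnitude of MuPOX08340 and Ku70 F was far below. POX02475 alone (1.18% of the 85) had Ku70 F at least 2-fold above S and T, against 465 (5.41%) of the 8589 IDs. The choice of the IDs caps how high Ku70 F can be but not how low, so nothing is read from the difference between these shares.

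Without Ku70 F, 8 more IDs would have met the thresholds, 93 in all. POX01937 was the most extreme of them, at 21.99, 24.55 and 28.0 FPKM in MuPOX01907, 4.89, 5.73 and 4.37 in MuPOX08340, and 3886.07, 4.32 and 4.62 in Ku70. The neighbouring numbers POX03928 and POX03929 were 2 others. POX03928 had 59.13, 60.6 and 60.45 FPKM in MuPOX01907, 1.06, 1.57 and 1.91 in MuPOX08340, and 31.36, 0.64 and 1.21 in Ku70. A single library thus kept these IDs out.

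Of the 77 IDs outside the run, 4 were numbered next to another of the 85. These were POX00017 with POX00018 and POX01237 with POX01238. In all, 12 of the 85 (14.1%) had a direct neighbour among them, 8 of these in the run. The 85 are 0.864% of all IDs, and the share of all IDs numbered next to one of them was not computed. A wider view takes in IDs called higher in MuPOX01907 than in both other strains, whatever their fold. Of the 85, 33 (38.8%) had such an ID at a next number, against 205 of the 549 IDs so called (37.3%). Having a neighbour that moved the same way was therefore about as frequent for the 85 as for all IDs called, which include the 85. The share over all IDs tested, of which 6.37% were so called, was not computed. Whether either share is high or low is thus not read from these values.

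POX01906, the number directly before the mutated gene, was among the 85. It had 122.76, 118.43 and 93.22 FPKM in MuPOX01907, 9.35, 6.79 and 6.28 in MuPOX08340, and 9.42, 4.35 and 5.13 in Ku70, with an implied length of 439 nt. POX01908, on the other side, had 11.83, 11.22 and 12.49 FPKM in MuPOX01907, 15.4, 14.41 and 13.39 in MuPOX08340, and 14.87, 18.63 and 25.49 in Ku70. POX01906 was thus high in the mutant of the gene numbered next to it, and POX01908 was slightly lower there. In the other mutant, POX08339, the number before POX08340, had 17.78, 18.75 and 18.95 FPKM in MuPOX01907, 284.6, 237.24 and 215.45 in MuPOX08340, and 11.67, 73.87 and 65.55 in Ku70. POX08341, on the other side, had 32.15, 24.39 and 23.56 FPKM in MuPOX01907, 24.1, 22.45 and 16.79 in MuPOX08340, and 171.61, 177.12 and 141.61 in Ku70. It was thus lower in both mutants than in Ku70. Each mutant had a high level of the ID numbered just before its own gene, a likeness noted after the values were seen. Any part of the mutation itself in these levels was not tested.

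**Figure D4:**
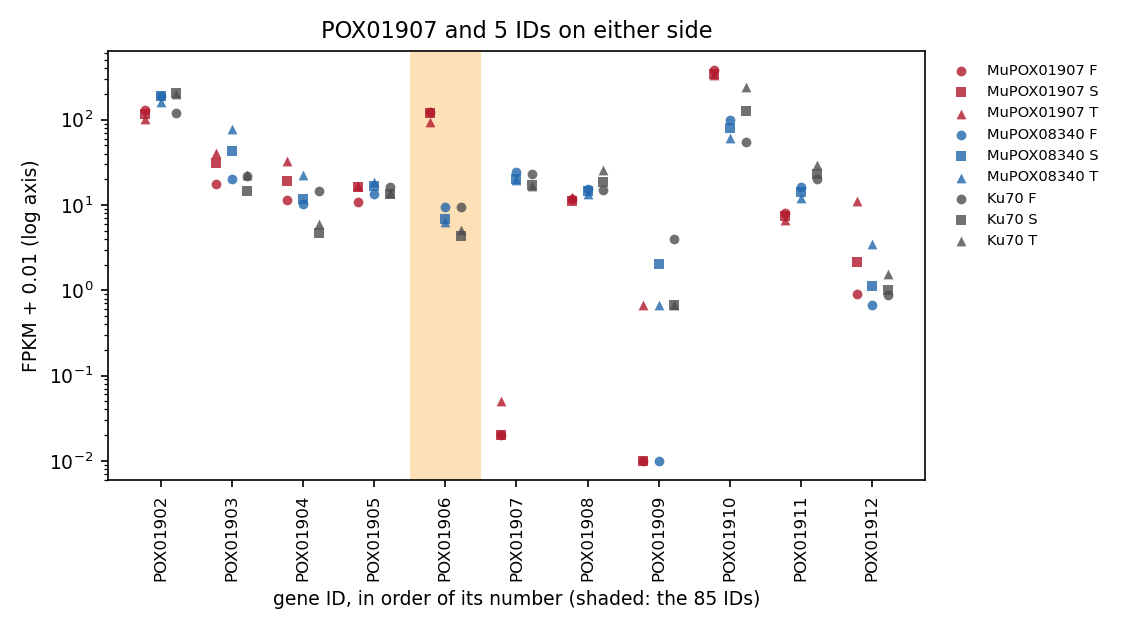
FPKM + 0.01 (log axis) of POX01907 and of 5 IDs on either side in the order of their numbers, 1 point per library, coloured by strain and shaped by library letter; the shaded ID, POX01906, is the one among the 85. POX01906 lies at 93.22 to 122.76 FPKM in MuPOX01907 and at 4.35 to 9.42 in the other 6 libraries, next to POX01907, which is at 0.04 FPKM or less in MuPOX01907.

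The choice of the 85 did not read the difference between MuPOX08340 and Ku70, but it read the highest value of these 6 libraries and so kept out IDs that were very high in either strain. The values that follow are therefore a description of the 85, and p-values are those of the fit over all IDs. EdgeR's quasi-likelihood test with Benjamini-Hochberg adjustment over 8623 IDs called 2 of the 85 higher and 3 lower in MuPOX08340, at an adjusted p under 0.05 and a log2 fold change of at least 1 in size. Over all IDs, 2.78% were called higher and 5.14% lower, and nothing particular to the 85 can be read from these counts. The median log2 fold change of the 85 was -0.10, beside -0.001 over all IDs. All 85 passed the filter on low counts, 6 of them only through their MuPOX01907 libraries. In a fit to the 6 MuPOX08340 and Ku70 libraries alone, 79 of the 85 passed the filter. Of these, 0 were called higher and 3 lower by edgeR, against 1.33% and 2.36% of 8508 IDs.

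POX05492 had 5.16, 4.79 and 5.2 FPKM in MuPOX08340 and 11.26, 13.67 and 12.67 in Ku70, and its log2 fold change was -1.33 (edgeR, adjusted p = 0.000494). POX03800 had 12.96, 10.34 and 9.81 FPKM in MuPOX08340 and 25.96, 31.26 and 22.26 in Ku70, with a log2 fold change of -1.29 (edgeR, adjusted p = 0.00425). MuPOX08340 and Ku70 did not overlap for either ID. In MuPOX01907 the same IDs stood at 134.39, 118.73 and 131.13 FPKM and at 171.68, 134.29 and 169.43 FPKM. Lack of overlap was frequent. Of the 8589 IDs with a mean of at least 1 FPKM, 15.8% had every MuPOX08340 library below every Ku70 library. Another 17.1% had every MuPOX08340 library above.

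POX09561 had 3.05, 1.85 and 1.85 FPKM in MuPOX08340 and 5.64, 31.88 and 29.41 in Ku70, a log2 fold change of -3.31 (edgeR, adjusted p = 0.00998). Its call ended without MuPOX08340 S (adjusted p = 0.0568) or without MuPOX08340 T (adjusted p = 0.0512), and over 15 alternatives its adjusted p ran from 6.0071e-08 to 0.0568. POX09471 had 1.7, 1.34 and 1.04 FPKM in MuPOX08340 and 0.66, 0.37 and 0.62 in Ku70, a log2 fold change of 1.28 (edgeR, adjusted p = 0.0143). Its call ended under 4 of the 15 alternatives, over which its adjusted p ran from 0.00166 to 0.0835. By edgeR its adjusted p was 0.0569 without MuPOX08340 S and 0.0835 with the MuPOX08340 and Ku70 libraries alone. By limma on log2(FPKM + 1), with or without a filter, its log2 fold change was 0.602, under the limit of 1. Both IDs kept non-overlapping strains, at low levels in the case of POX09471.

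POX05132 had 697.21, 541.74 and 603.94 FPKM in MuPOX08340 and 12.1, 179.92 and 113.31 in Ku70, a log2 fold change of 2.58 (edgeR, adjusted p = 0.0469). In MuPOX01907 it stood at 2222.53, 2130.05 and 2426.63 FPKM, above both other strains as the choice of the IDs requires. Its MuPOX08340 and Ku70 libraries did not overlap. Its adjusted p ran from 0.000535 to 0.122 over the 15 alternatives, and 8 of them ended the call. Leaving out MuPOX08340 F, S or T gave an adjusted p of 0.0795, 0.114 and 0.122, and leaving out Ku70 T gave 0.0775. Without Ku70 F the log2 fold change was 2.05 (edgeR, adjusted p = 0.000535). That fit called 8 of the 85 in all, 3 more being POX01812, POX00018 and POX08689, all lower in MuPOX08340. In the same fit 3.18% of all 8681 IDs were called higher and 5.73% lower, so that 9.41% of the 85 and 8.90% of all IDs were called.

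**Figure D5:**
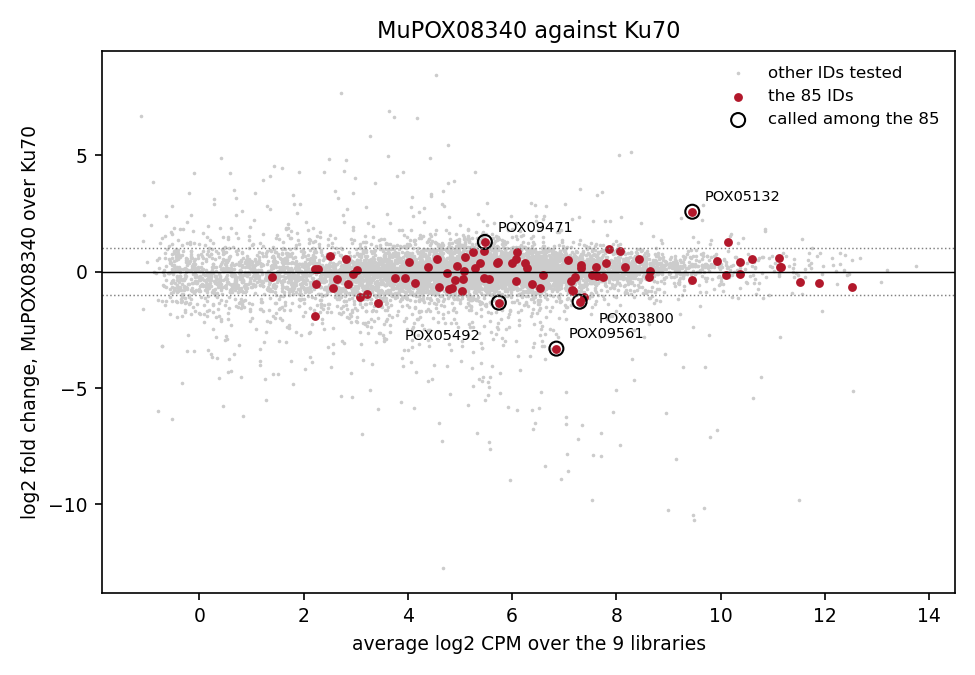
Log2 fold change of MuPOX08340 over Ku70 (edgeR) against average log2 CPM (counts scaled to library size) over the 9 libraries, 1 point per ID tested; the 85 IDs are red, those called among them are ringed, and dotted lines mark a log2 fold change of 1 and -1. The red points scatter about 0 with a median of -0.10, with POX05132 at 2.58 and POX09561 at -3.31.

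IDs close to the thresholds show how graded the choice is. Just inside the fold limit were POX07932, POX07577 and POX05132 at ratios of 3.02, 3.05 and 3.06. POX07225, POX07855 and POX03284 were just outside at 2.92, 2.99 and 2.99. POX07855 had 209.91, 187.49 and 173.97 FPKM in MuPOX01907, 48.36, 52.89 and 51.14 in MuPOX08340, and 56.4, 48.83 and 58.17 in Ku70. Just inside the level limit were POX07449, POX03073 and POX07547, whose lowest MuPOX01907 values were 10.11, 11.6 and 11.96 FPKM, and just outside were POX01939, POX08025 and POX00597 at 8.91, 9.36 and 9.8. Of these 6 IDs just outside, 4 were numbered next to one of the 85: POX07225 beside POX07226, POX07855 beside POX07854, POX01939 beside POX01940 and POX08025 beside POX08024. No share over all IDs was computed beside this count, so nothing is read from it.

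For 14 of the 85 IDs, counts were off a whole number by more than 1e-06 in at least 1 library, which occurs where reads are shared among genes, against 13.4% of all IDs. The distance was at most 0.08 of a count. POX08690, POX08692 and POX08693 of the run and POX01237 and POX07896 were among the 14. Any uncertainty from reads shared with near-identical genes is left out of the errors given here.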

How the data were processed

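Per the file headers, each of the 9 deposited tables holds expected counts and FPKM for 9834 IDs. The submitters' processing notes name RSEM 1.2.12, DESeq2, Bowtie2 2.1.0 and BWA 0.7.10-r789 among the authors' tools. The role of each, the genome build, the annotation and the strandedness were not given in the sources used.

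FPKM as deposited gave the choice of IDs, levels and folds. The members, lists and tests were chosen with earlier results of these data known. For MuPOX08340 against Ku70, expected counts rounded to whole numbers were tested with edgeR 4.0.16 in R 4.3.3 (TMM, filterByExpr, quasi-likelihood test, all 9 libraries, Benjamini-Hochberg over the 8623 IDs kept), and called at adjusted p under 0.05 and an absolute log2 fold change of at least 1. DESeq2 1.42.0, where an NA stayed NA, and limma 3.58.1 on log2(FPKM + 1) were among the alternatives. The scripts were tested on simulated data. Implied length is the count scaled by FPKM and library total, for IDs with at least 50 counts.

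IDs named were the 10 highest in MuPOX01907, the 10 with the largest ratio, runs of at least 3 consecutive numbers with their flanks, those called in MuPOX08340 against Ku70, the 3 on either side of the fold limit, the 3 most and 3 least variable, and both genes of the labels. Others were named after their values were seen. Deviations from strain means correlated between same-letter libraries of MuPOX08340 and Ku70 at 0.05 for F, -0.17 for S and 0.26 for T, so the letters do not pair these strains. Between MuPOX01907 and MuPOX08340 they correlated at 0.58 for F, 0.10 for S and 0.47 for T, so same letters went together for F and T. Different letters of these 2 strains gave -0.56 to 0.25. MuPOX01907 S correlated more with MuPOX08340 T (0.25) than with MuPOX08340 S, so pairing is not shown for S. The main fit used no pairing, and a replicate block was an alternative. Between MuPOX01907 and Ku70 same-letter libraries correlated at -0.06, -0.06 and 0.09.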

Additional observations from a re-analysis of the deposited data

How the results depend on the processing

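The number of IDs followed the fold limit, with 161 IDs at 2-fold and 51 at 5-fold, and stayed within 1.5 times of 85 under the 13 other settings tried (73 to 119), among them level limits, TPM and each library left out. IDs called in MuPOX08340 against Ku70 numbered 3 with limma on log2(FPKM + 1) without a filter and 3 with the libraries of these strains alone, against 5, and 2 to 8 as single libraries were left out (2 without MuPOX08340 S, 3 without MuPOX08340 T, 8 without Ku70 F). Calls over all IDs moved too, to 281, 314 and 773 in these 3 fits against 683. They were 472 of 9834 IDs (4.80%) with limma without a filter. With the libraries of these strains alone they were 314 of 8508 (3.69%). POX03800 and POX05492 were called under all 15 alternatives, POX09561 under 13, POX09471 under 11 and POX05132 under 7, and the causes were not tested. The median log2 fold change of the 85 ranged from -0.12 to 0.10. With a replicate block, which pairs the letters, 4 of the 85 (4.71%) were called in MuPOX08340 against Ku70, beside 7.84% of all IDs. In that fit 573 IDs, against 549, were higher in MuPOX01907 than in both other strains. The 12 IDs with a next-number neighbour among the 85 became 4 without the run, and 33 where any ID called higher in both counted, both alternatives chosen after seeing the data. The share in MuPOX01907 was 6.23% of summed FPKM, against 8.12% of counts. Low counts limit POX03581 and POX04807 outside MuPOX01907.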
